A study of Rattus norvegicus with 9 samples.

Results

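The genes described here are 40 proliferation genes of S phase and mitosis, measured in pancreatic islets of rats fed a standard or a cafeteria diet. They were chosen by symbol from a fixed list. A gene was found where the platform annotation gives a probe set exactly 1 symbol equal to its name, and where it had several such probe sets, the one with the highest mean over 9 arrays was used. Of the 40 genes, 37 were found, out of 14217 genes named in this way on the array. Rrm2 and Ckap2 appeared only on probe sets that carry several symbols, and no probe set was named Tpx2, so these 3 genes have no value here. The list holds 11 genes of DNA replication, 27 genes of G2 and mitosis, and the 2 E cyclins, which act at the entry into S phase.

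Islets are the small clusters of endocrine cells in the pancreas, and these came from adult male Wistar rats. The labels give an age of 7 weeks and a weight of 225 to 250 g for both diets. Whether these hold for the start or the end of the feeding is not settled here. The animals were housed 1 to a cage and fed for 30 days with standard chow, with 8% of calories as fat, or with a cafeteria diet of palatable food, with 66% of calories as fat. The standard diet had 4 arrays and the cafeteria diet 5, each called a biological replicate by the labels, which name no genetic change or other treatment in either group. Groups follow the sample titles, which the source names and descriptions repeat. The diet field of the labels states the opposite for all 9 samples, and following it would turn the sign of each difference given here.

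Cells copy their DNA in S phase and divide it in mitosis, and most of the genes in question are switched on only in cells that are passing through these phases. Beta cells of adult rodents divide rarely but can do so more often when the demand for insulin grows. Which cells of the whole islets the signals came from was not measured here. Islet preparations also hold endothelial, stromal and immune cells, which divide too. In such bulk RNA, a larger number of dividing cells and more RNA per dividing cell cannot be told apart.

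The members fall into classes that textbooks separate by their promoters. Genes of S phase are typically driven through E2F sites. Genes of G2 and mitosis are typically driven through CCAAT boxes, bound by NF-Y, together with a cell cycle genes homology region, or CHR, of the letters TTTGAA. Promoters of 2 Mcm genes and 4 mitotic genes are shown to let these motifs be seen. They are the 150 bases before the start of the gene, from RefSeq on GRCr8, and the 6 were taken from members whose listed start is the outermost one of the gene. Capitals mark matches on either strand to TTTGAA, to CCAAT, and to the E2F letters TTTCCCGC, TTTCGCGC, TTTGCCGC or TTTGGCGC.
Mcm5, chr19:13488663-13488812, plus strand: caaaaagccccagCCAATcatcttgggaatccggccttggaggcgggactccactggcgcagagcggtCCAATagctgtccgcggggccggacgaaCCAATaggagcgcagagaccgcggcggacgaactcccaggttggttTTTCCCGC
Mcm6, chr13:42404353-42404502, minus strand: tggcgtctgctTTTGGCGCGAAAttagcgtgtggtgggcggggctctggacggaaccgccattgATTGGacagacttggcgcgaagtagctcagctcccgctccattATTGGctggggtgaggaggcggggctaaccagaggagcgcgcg
Top2a, chr10:84473094-84473243, minus strand: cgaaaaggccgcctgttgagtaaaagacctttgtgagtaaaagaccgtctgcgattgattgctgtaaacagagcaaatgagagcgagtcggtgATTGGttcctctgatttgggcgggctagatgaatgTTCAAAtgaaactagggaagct
Cdc20, chr5:137255800-137255949, minus strand: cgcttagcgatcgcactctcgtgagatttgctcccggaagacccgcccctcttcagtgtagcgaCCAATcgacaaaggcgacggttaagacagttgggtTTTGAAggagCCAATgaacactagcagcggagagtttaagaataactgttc
Ccnb1, chr2:33655226-33655375, minus strand: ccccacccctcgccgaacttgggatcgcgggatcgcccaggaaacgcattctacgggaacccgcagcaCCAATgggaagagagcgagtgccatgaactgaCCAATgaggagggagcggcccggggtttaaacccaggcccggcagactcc
Kif20a, chr18:26504272-26504421, plus strand: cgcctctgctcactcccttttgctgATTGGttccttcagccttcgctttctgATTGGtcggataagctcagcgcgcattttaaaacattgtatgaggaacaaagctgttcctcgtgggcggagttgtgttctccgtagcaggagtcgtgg

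The E2F letters ended right at the start of Mcm5, and in Mcm6 the forward and reverse E2F matches overlapped in 1 run, 139 to 128 bases before the start. In Top2a the reversed CHR letters lay 22 to 17 bases before the start, and in Cdc20 the CHR letters lay between a pair of CCAAT boxes. Ccnb1 and Kif20a held CCAAT letters in the printed stretch and no TTTGAA. No match of 1 motif overlapped a match of another. Promoters were given for 32 of the 40 members. Over the 250 bases before the start, E2F letters were found in 5 of 9 replication members and in 1 of 22 mitotic members, Cdk1, against 1.81% of all 27457 genes in the table. TTTGAA and CCAAT occurred together in 10 of 22 mitotic members and in 0 of 9 replication members, against 5.76% of all genes. CCAAT, with or without another motif, was found in 77.3% of the mitotic and 66.7% of the replication members, against 34.3% of all genes. These matches describe letters and not bound sites, and a missing match says only that the letters are not in the window.

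Each array gave 1 linear signal per probe set, and precision is limited by how many arrays there are. Array medians lay between 147.0 and 166.6. The islet hormone genes Ins1, Ins2, Iapp, Gcg, Sst and Ppy, used to check the tissue, had group mean signals between 24082 and 44664. Over all 18625 probe sets whose mean signal passed the filter on dim values, at about 91.1, limma called none at an adjusted p under 0.05. Without standard replicate 2 it called 2, neither of them a member.

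Of the 37 members found, 31 passed the filter and were tested, and none passed the adjusted threshold (limma, Benjamini-Hochberg adjusted p from 0.839 to 0.995), as for 0% of all probe sets tested. The log2 fold of cafeteria over standard islets, on log2(signal + 16), was positive for 25 of the 31, where 48.1% of all probe sets tested had a positive fold. The median log2 fold over the members was 0.20, against -0.01 over all probe sets tested. Leaving out single arrays lowered this median to 0.085 for cafeteria replicate 5, 0.10 for standard replicate 4 and 0.12 for standard replicate 2, and it reached at most 0.27, when cafeteria replicate 1 was left out. Of the 31, 2 had an unadjusted p under 0.05 with a positive fold, Kif20a and Rrm1, where 3.01% of all probe sets did. None had such a p with a negative fold, where 2.79% did, and in either direction the share of all probe sets was 5.80%. The groups overlapped for each of the 31 members, while 1.76% of all probe sets had groups that did not overlap, 0.999% with higher and 0.762% with lower cafeteria values. The 95% interval of the fold included 0 for 29 of 31 members. Every p-value here sets a difference between the diets against the spread between these arrays. For that spread limma also draws on the other probe sets.

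**Figure D1:**
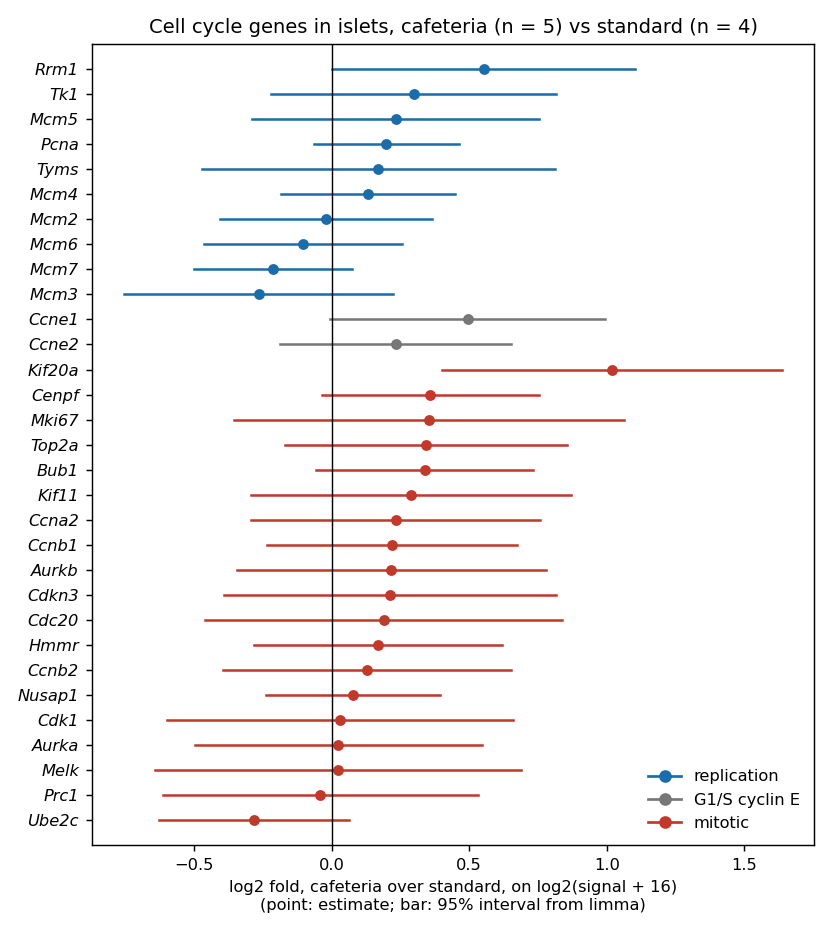
Log2 fold of cafeteria over standard islets for the 31 tested members, with points for the estimate and bars for the 95% interval, in blue for replication, grey for E cyclins and red for mitotic genes. Most points lie right of 0, and Kif20a at 1.02 lies farthest right. Left of 0 lie Mcm3, Mcm6, Mcm7 and Mcm2, and the mitotic genes Ube2c, farthest left at -0.28, and Prc1. Quantile normalisation turned Mcm2 and Prc1, and median centring turned Mcm2.

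The Mcm genes encode the 6 subunits of the helicase that is loaded at replication origins and unwinds DNA. They had folds on both sides of 0, 2 positive and 4 negative, with a median log2 fold of -0.06, and Mcm2 turned positive with quantile normalisation or median centring. Mcm7 had signals of 792.9, 637.7, 654.6 and 745.5 in standard replicates 1 to 4, and of 532.4, 718.0, 545.0, 586.6 and 668.6 in cafeteria replicates 1 to 5. The Mcm7 signal was below all standard arrays in 3 of 5 cafeteria arrays, while the other two lay within the standard range. Its log2 fold was -0.21 ± 0.13 (SE), with a 95% interval from -0.50 to 0.07 and an exact two-sided permutation p of 0.111. Mcm3 had 124.5, 114.8, 176.9 and 92.6 in standard islets, and 84.2, 122.3, 84.8, 114.6 and 101.8 in cafeteria islets. For Mcm3 only cafeteria replicates 1 and 3 lay outside the standard range, below it, and standard replicate 3 held the highest value. Its log2 fold was -0.27 ± 0.23 (limma adjusted p = 0.872). Mcm6 had a log2 fold of -0.11, Mcm4 0.13 and Mcm5 0.23, and standard replicate 2, at 71.9, had the lowest Mcm5 signal of all arrays. Mcm2 had -0.02, with signals from 271.8 to 486.8 in cafeteria islets against 316.7 to 377.9 in standard islets, so that its cafeteria arrays lay on both sides of the standard range.

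The members that supply nucleotides or work at the replication fork had positive folds in 4 of 4 tested cases, with a median of 0.25. Rrm1 is the large subunit of ribonucleotide reductase, which makes deoxynucleotides. Its signals were 459.0, 298.0, 226.4 and 275.0 in standard islets and 276.1, 471.8, 597.1, 371.6 and 660.7 in cafeteria islets. Rrm1 exceeded all standard arrays in cafeteria replicates 2, 3 and 5, and cafeteria replicates 1 and 4 lay among the standard values. The means were 314.6 ± 100.8 (SD, n = 4) and 475.4 ± 157.8 (SD, n = 5). The log2 fold was 0.55 ± 0.25, with an interval from 0.0027 to 1.10, an unadjusted limma p of 0.049, an adjusted one of 0.839 and an exact permutation p of 0.127.

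Pcna, the sliding clamp that holds DNA polymerases on the template, had 2616, 2251, 2299 and 1980 in standard islets. In cafeteria islets it had 2130, 2768, 3083, 2496 and 2694. It exceeded all standard arrays in 3 cafeteria arrays. The log2 fold of Pcna was 0.20 ± 0.12, with an interval from -0.06 to 0.46 and an exact permutation p of 0.151. Tk1, which salvages thymidine, had a log2 fold of 0.30, with 3 cafeteria arrays above all standard arrays. Tyms, which makes thymidylate, had 0.17. For Tyms the cafeteria arrays lay on both sides of the standard range, 2 below it and 3 above it.

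**Figure D2:**
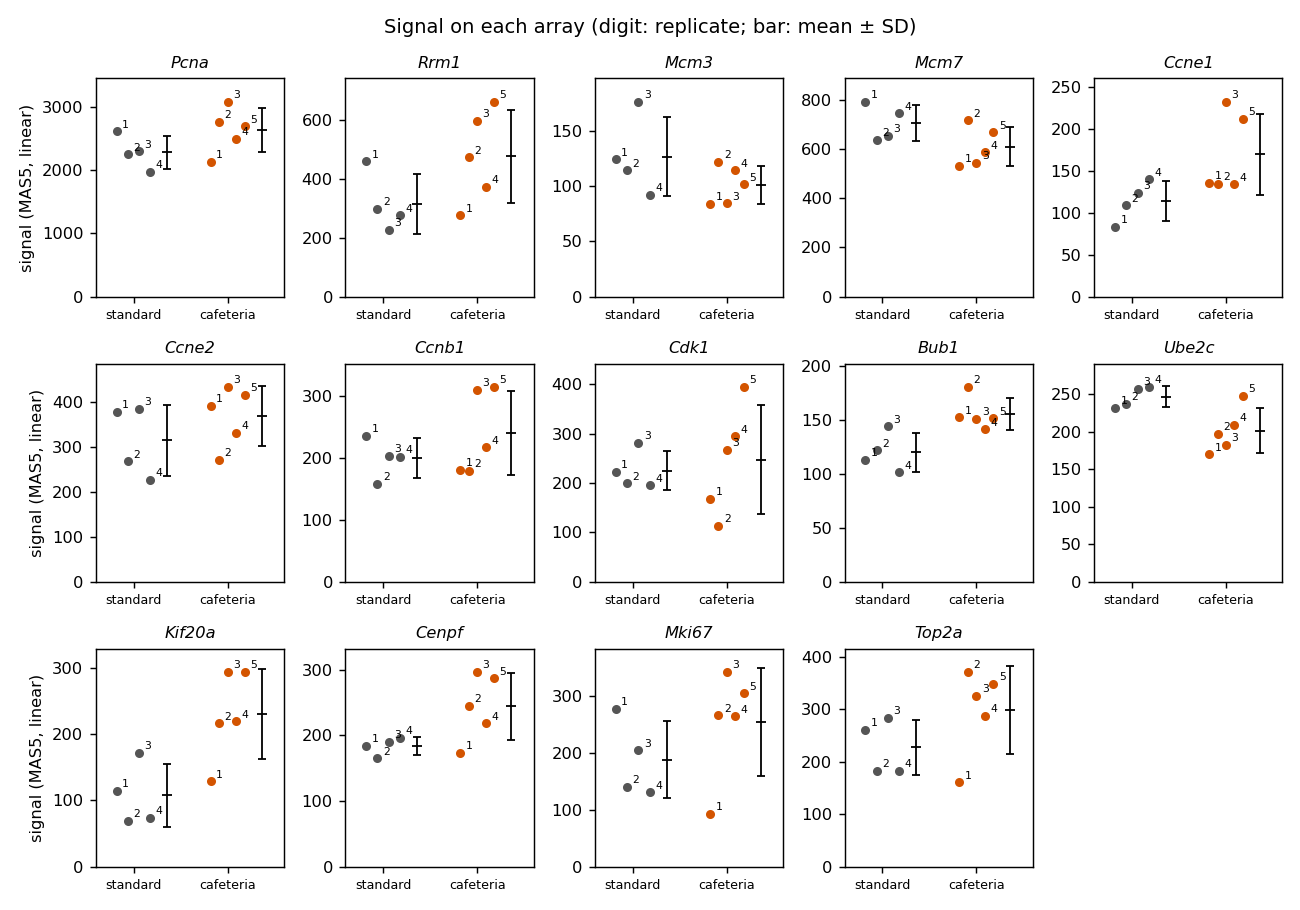
Signal of 14 members on each array, on linear axes from 0, with standard arrays in grey, cafeteria arrays in orange, the replicate as a digit, and the mean with SD beside the points. For Kif20a, Cenpf, Mki67 and Top2a the lowest cafeteria array is replicate 1, and the groups overlap in each panel.

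Cyclins and the kinase they activate drive the transitions of the cycle, and the 8 tested members of that role had positive folds, with a median of 0.22. Cyclin E1, encoded by Ccne1, activates Cdk2 at the start of S phase. Ccne1 had 83.4, 108.6, 123.7 and 139.5 in standard islets, and 135.2, 134.0, 231.9, 133.8 and 211.4 in cafeteria islets. Cafeteria replicates 3 and 5 stood above all standard arrays, and the other three lay just below the highest standard value. The log2 fold was 0.50 ± 0.23, with an interval from -0.0046 to 0.99 (limma adjusted p = 0.839, exact permutation p = 0.0794). Ccne2 had 378.9, 268.8, 385.2 and 227.7 in standard islets and 392.4, 271.3, 434.3, 332.3 and 417.4 in cafeteria islets. Cafeteria replicates 1, 3 and 5 exceeded all standard arrays, and replicates 2 and 4 lay within the standard range. The log2 fold of Ccne2 was 0.23 ± 0.19. A second Ccne2 probe set had -0.13 ± 0.33, the opposite sign.

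Cyclin B1 and Cdk1 form the kinase that starts mitosis. Ccnb1 had 236.4, 158.6, 203.9 and 201.8 in standard islets, and 180.6, 179.5, 310.6, 217.1 and 315.1 in cafeteria islets. Only cafeteria replicates 3 and 5 were above the standard range for Ccnb1. The log2 fold was 0.22 ± 0.21 (exact permutation p = 0.333), and a second Ccnb1 probe set gave 0.43 ± 0.22. Cdk1 had 223.4, 199.7, 281.1 and 195.2 in standard islets, and 168.1, 112.7, 268.0, 294.4 and 394.9 in cafeteria islets. The Cdk1 values in cafeteria islets reached below and above the standard range, and the log2 fold of 0.03 ± 0.29 had an interval from -0.60 to 0.66. Its sign turned in 6 of 18 alternative settings. Among the other members of that role, the log2 folds were 0.23 for Ccna2 (cyclin A2), 0.13 for Ccnb2 (cyclin B2), 0.21 for Cdkn3, a phosphatase that acts on cyclin-dependent kinases, and 0.02 for the kinase Melk.

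Mitotic kinases, the spindle checkpoint and the ubiquitin ligase APC/C control the steps of division, and 5 of 8 members of that role were tested, 4 with a positive fold and 1 with a negative one. Bub1, a checkpoint kinase at kinetochores, had 112.8, 121.4, 143.6 and 101.1 in standard islets and 152.1, 180.2, 150.7, 140.8 and 151.3 in cafeteria islets. It exceeded all standard arrays in 4 of 5 cafeteria arrays, and only cafeteria replicate 4 fell below the highest standard value. Its log2 fold was 0.34 ± 0.18, with an interval from -0.055 to 0.73. Ube2c, the ubiquitin-conjugating enzyme that works with APC/C, lay the other way. Its signals were 232.2, 237.3, 257.3 and 259.9 in standard islets and 170.0, 197.7, 182.3, 209.3 and 248.5 in cafeteria islets. Ube2c was below all standard arrays in 4 of 5 cafeteria arrays, with replicate 5 within the standard range, and the log2 fold was -0.28 ± 0.16, with an interval from -0.63 to 0.06. The exact permutation p was 0.0159 for Bub1 and 0.0397 for Ube2c, and their limma adjusted p-values were 0.849 and 0.859. Of the 31 members 3 had an exact p under 0.05, unadjusted, where 5.50% of all probe sets did, and the smallest exact p that 126 splits of the arrays allow is 0.0079. Aurka and Aurkb, the Aurora kinases of the spindle pole and of the chromosomal passenger complex, had log2 folds of 0.03 and 0.22. Cdc20, which activates APC/C, had 0.19 ± 0.30, and 0.50 ± 0.26 on a second probe set.

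Genes of the spindle, kinetochores and cytokinesis included Kif20a, which had the largest log2 fold among the 31 tested members. Kif20a is a kinesin of the central spindle, needed for cytokinesis. It had signals of 114.9, 69.6, 171.6 and 73.9 in standard islets, and of 128.5, 216.1, 293.2, 219.1 and 293.3 in cafeteria islets. In 4 of 5 cafeteria arrays Kif20a was above all standard arrays, and cafeteria replicate 1 lay below standard replicate 3. The means were 107.5 ± 47.3 (SD, n = 4) and 230.1 ± 68.2 (SD, n = 5). The log2 fold was 1.02 ± 0.29, a fold of 2.02, with an interval from 0.40 to 1.63. The unadjusted limma p was 0.0034, the adjusted one 0.839 and the exact permutation p 0.0238. With each array left out in turn the log2 fold lay between 0.87 and 1.24.

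Cenpf, a protein of the outer kinetochore, had 183.7, 165.0, 190.4 and 196.1 in standard islets and 173.3, 245.1, 296.2, 218.5 and 286.8 in cafeteria islets. It too was above all standard arrays in 4 of 5 cafeteria arrays, with replicate 1 within the standard range. Its log2 fold was 0.36 ± 0.18, with an interval from -0.03 to 0.75 and an exact permutation p of 0.0635. The other tested members of that role were Kif11, a motor that separates spindle poles, at 0.29, Hmmr, a spindle assembly factor, at 0.17, Nusap1, a microtubule-binding protein, at 0.08, and Prc1, which bundles the midzone microtubules, at -0.04, or above 0 with quantile normalisation. Cafeteria arrays of Prc1 ran from 153.8 to 450.0, a wider range than the 240.2 to 375.9 of standard arrays.

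Mki67, the gene of the Ki-67 antigen used to count dividing cells, had 277.5, 140.7, 204.4 and 131.1 in standard islets. In cafeteria islets it had 93.5, 266.6, 342.3, 264.3 and 305.0. Cafeteria replicate 1 was the lowest of all 9 arrays, replicates 3 and 5 were the highest, and standard replicate 1 lay among the cafeteria values. The Mki67 log2 fold was 0.35 ± 0.33, with an interval from -0.35 to 1.06 and an exact permutation p of 0.405. With each array left out in turn it lay between 0.21, without standard replicate 4, and 0.65, without cafeteria replicate 1. Top2a, the topoisomerase that untangles chromosomes, had 261.0, 183.1, 283.7 and 182.7 in standard islets and 160.9, 371.0, 325.4, 288.2 and 348.2 in cafeteria islets. Again replicate 1 was the lowest of all arrays, and the other four cafeteria arrays lay above all standard arrays. The Top2a log2 fold was 0.34 ± 0.24, with an interval from -0.17 to 0.86 and an exact permutation p of 0.222, and 0.54 without cafeteria replicate 1.

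The 6 members below the filter were mitotic genes and were not tested. Plk1, the kinase that acts at many steps of mitosis, had signals of 69.0, 13.0, 69.5 and 111.1 in standard islets and 58.0, 212.2, 167.7, 149.2 and 117.2 in cafeteria islets. It lay just under the filter, and 4 of 5 cafeteria arrays exceeded all standard arrays. Its log2 fold was 1.03 on the log2(signal + 16) scale. Foxm1, a transcription factor that drives mitotic genes, had means of 105.5 ± 40.6 (SD, n = 4) and 76.6 ± 18.2 (SD, n = 5). Bub1b, a checkpoint protein, had 82.0 ± 34.5 and 59.1 ± 33.4. The passenger protein Birc5 had 70.8 ± 40.2 and 78.0 ± 32.6, the kinesin Kif2c 66.6 ± 35.3 and 82.4 ± 31.4, and the kinetochore motor Cenpe 28.5 ± 17.9 and 30.2 ± 29.9. For these 5 genes the group means differed by less than the larger SD. With no filter, 28 of 37 members had a positive fold, against 48.0% of all probe sets. An unadjusted p under 0.05 with a positive fold was then found for 3, the third being Plk1, against 2.69% of all probe sets.

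The members differed between arrays of the same diet as well. To show this, each gene's log2 signal was taken relative to its mean over the 9 arrays. Over the 19 tested mitotic members, the median deviation was 0.02, -0.33, 0.10 and -0.21 in standard replicates 1 to 4. In cafeteria replicates 1 to 5 it was -0.38, 0.09, 0.23, 0.15 and 0.51. The arrays at both ends of this order, cafeteria replicates 1 and 5, were thus from the same diet. Cafeteria replicate 1 had the lowest signal of its group for 15 of the 19 mitotic members and the lowest of all 9 arrays for 10. Cafeteria replicate 5 had the highest signal of its group for 14 of the 19, the highest of all arrays for 13, and was above the gene's mean for 19 of 19. The median deviation over all probe sets tested stayed between -0.01 and 0.02 on every array.

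**Figure D3:**
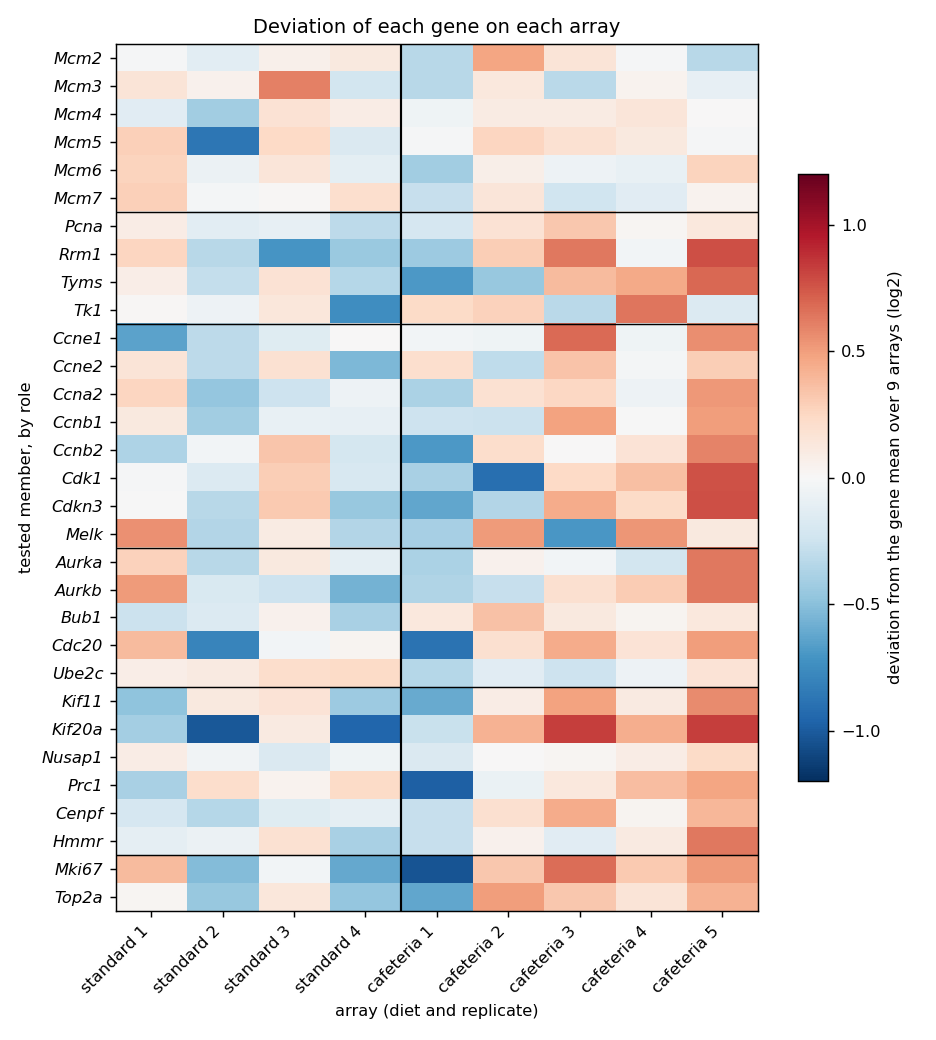
Deviation of each of the 31 tested members from its own mean over the 9 arrays, on a log2 scale from blue (lower) to red (higher), with arrays as columns, roles separated by lines and the diets by a thick line. The column of cafeteria replicate 1 is mostly blue, the Mcm rows at the top included, and that of cafeteria replicate 5 is mostly red below the Mcm rows.

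The Mcm genes did not show the same order of arrays. Their median deviation was 0.21, -0.10, 0.16 and -0.01 in standard replicates 1 to 4, and -0.30, 0.14, 0.02, 0.02 and -0.01 in cafeteria replicates 1 to 5. Cafeteria replicate 1 was the lowest of its group for 5 of 6 Mcm genes, as for the mitotic members. Cafeteria replicate 5, in contrast, was the highest of its group for 1 of 6 Mcm genes. Whether the Mcm and mitotic genes differ in their response to diet was not tested. By group, the replication members as a whole had a median log2 fold of 0.15 (6 of 10 positive) and the mitotic members 0.21 (17 of 19 positive).

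**Figure D4:**
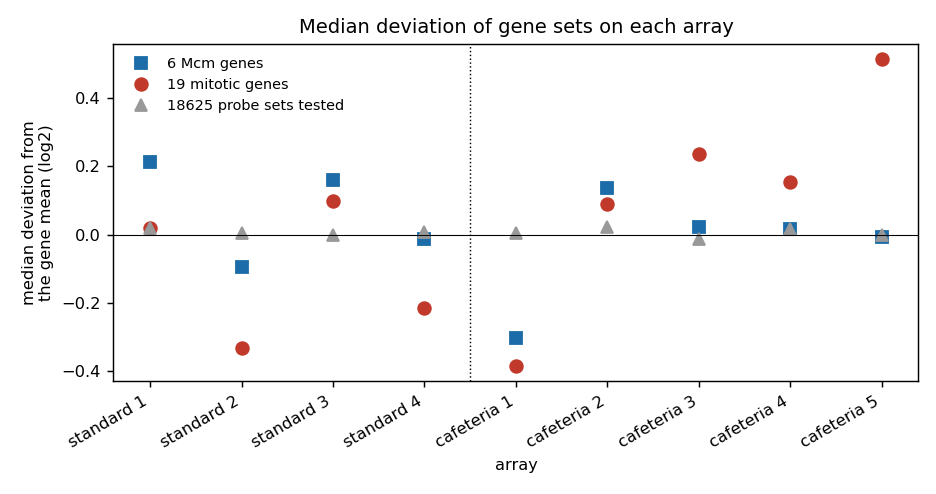
Median deviation from the gene mean (log2) on each array for the 6 Mcm genes, the 19 tested mitotic members and all 18625 probe sets tested. The mitotic median runs from -0.38 in cafeteria replicate 1 to 0.51 in cafeteria replicate 5, where the Mcm median is -0.01, and the median of all probe sets stays near 0.

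Single arrays moved the counts. Without cafeteria replicate 1, 7 of 31 members had an unadjusted p under 0.05 with a positive fold, namely Kif20a, Rrm1, Ccne1, Pcna, Cenpf, Mki67 and Top2a, where 4.54% of all probe sets did, and none passed the adjusted threshold. Without cafeteria replicates 3 or 5, or standard replicates 2 or 3, only Kif20a remained among those with a positive fold, and without cafeteria replicate 5 Ube2c had such a p with a negative fold. Of the 31 members, 23 kept the sign of the fold in each alternative in which they were tested, 19 positive and 4 negative. The 8 whose sign turned in some were Aurka, Ccnb2, Cdc20, Cdk1, Mcm2, Mcm5, Melk and Prc1, and quantile normalisation turned Mcm2 and Prc1, and median centring Mcm2.

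For 7 members more than 1 probe set passed the filter, and 6 of these had the same sign on all of them, Ccne2 being the exception. The second Hmmr probe set had a log2 fold of 0.36 against 0.17, the second Tk1 one 0.39 against 0.30, the second Nusap1 one 0.15 against 0.08 and the second Top2a one 0.18 against 0.34.

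Markers of other cell types and of RNA quality varied between the same arrays. The summed signal of 10 macrophage genes was 7111 to 12340 in standard islets and 3964 to 6742 in cafeteria islets, without overlap, and cafeteria replicates 1 and 5 held the lowest and the highest of the cafeteria sums. Much of this sum was Cd74, which antigen-presenting cells express, with 3194 to 7348 against 1684 to 2642. Without Cd74, an alternative chosen after seeing the data, the sums were 3499 to 4992 and 2036 to 4099 and overlapped. All 7 macrophage genes tested had negative log2 folds, with a median of -0.30, from -0.95 for Cd74 to -0.0039 for Cd68. A negative fold was found for 9672 of all 18625 probe sets tested. For 10 of 12 lymphocyte genes named on the array, the sum was 857.9 to 4687 in standard islets, highest in replicate 3, and 684.9 to 885.0 in cafeteria islets. Of the 4 lymphocyte genes tested, 0 had a positive log2 fold, with a median of -0.87. Of 10 acinar genes, which encode digestive enzymes and other products of the exocrine pancreas, 9 had a positive log2 fold, with a median of 0.49. Of all probe sets tested 48.1% had a positive fold, and their median was -0.01. The acinar sum was 3431 to 8745 in standard and 2670 to 9328 in cafeteria islets. It was lowest of all arrays in cafeteria replicate 5, where the mitotic members were highest, and 9050 in cafeteria replicate 1. The highest acinar sum, 9328, was that of cafeteria replicate 3, where the mitotic median deviation was 0.23. Standard replicate 4 had an acinar sum of 3471 and a mitotic median deviation of -0.21. The sum of 8 of 9 endothelial genes was 13508 to 15837 and 13119 to 15221. Fibroblast and stellate genes, 8 in number, had sums of 12339 to 17382 and 10680 to 20325, and 5 of 7 duct genes 3678 to 6983 and 3046 to 4448. Positive folds were found for 2 of 8 endothelial, 3 of 8 fibroblast and stellate, and 0 of 3 duct genes tested. Some markers were dim: of those named on the array, 7 of 10 macrophage, 4 of 10 lymphocyte and 3 of 5 duct genes passed the filter. The lymphocyte gene Cd79b had 4.2 to 10.6 in cafeteria islets. The ratio of 3' to 5' beta-actin signal, which grows as RNA is degraded, was 3.00 to 4.84 in standard islets and 2.79 to 5.63 in cafeteria islets. It was lowest in cafeteria replicate 1, at 2.79, highest in cafeteria replicate 3, at 5.63, and 4.59 in cafeteria replicate 5. The same ratio for GAPDH was 1.30 to 1.64 in standard and 1.29 to 1.62 in cafeteria islets, lowest in cafeteria replicate 4. The part of these in the folds and in the order of arrays was not tested.

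Other genes of the same processes were read from 2 further lists. These lists too were chosen with earlier results of these data known, so they are not independent support. The genes named from each are those with the smallest p. Of 53 other genes of mitosis and cytokinesis, 45 were named on the array and 28 passed the filter. Of the 28, 26 had a positive log2 fold, with a median of 0.32, against 48.1% of all probe sets tested and a median of -0.01. At an unadjusted p under 0.05, 2 were higher and 1 lower, against 3.01% and 2.79% of all probe sets, and none passed limma's adjusted threshold (lowest adjusted p = 0.839). Cks1b, a small subunit of cyclin-dependent kinases, had 230.8, 287.4, 323.8 and 300.2 in standard islets and 444.9, 351.7, 388.6, 397.6 and 507.0 in cafeteria islets. Its groups did not overlap, as for 0.999% of all probe sets in that direction. The log2 fold of Cks1b was 0.52 ± 0.15, with an exact permutation p of 0.0079, the smallest possible here. Nuf2, of the kinetochore, had 0.60 ± 0.25. Cdc25b, a phosphatase that activates Cdk1, had -0.51 ± 0.18, with means of 408.8 ± 85.3 (SD, n = 4) and 282.0 ± 51.5 (SD, n = 5).

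Of 39 other genes of DNA replication and S phase, 35 were named and 23 passed the filter. Of these 16 had a positive log2 fold, with a median of 0.07, against 48.1% of all probe sets. An unadjusted p under 0.05 with a positive fold was found for 3 of the 23, against 3.01% of all probe sets. Chek1, the kinase that guards replication forks, had 208.0, 140.4, 193.0 and 204.8 in standard islets and 238.7, 304.1, 380.3, 224.1 and 322.5 in cafeteria islets. Every cafeteria value was above every standard one, and the log2 fold was 0.60 ± 0.19 (exact permutation p = 0.0159). Dtl, which directs the destruction of the licensing factor Cdt1, had 79.1 to 132.3 in standard islets and 149.0 to 198.2 in cafeteria islets. Its groups did not overlap either, and its log2 fold was 0.54 ± 0.20. Cdc45, a partner of the Mcm helicase, had a log2 fold of 0.45 ± 0.17, with groups that overlapped. Of the 23 genes, 2 had groups without overlap and higher cafeteria values, Chek1 and Dtl, as did 0.999% of all probe sets. Both were named for their small p. The limma adjusted p was 0.839 for Chek1, Dtl and Cdc45 alike.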

How the data were processed

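Signals were measured with the Affymetrix Rat Genome 230 2.0 array, which has 1 colour. The authors made the deposited intensity values, linear and 1 per probe set, with MAS5, a tool named without a version per the submitters' processing notes. Each array's mean, with 2% cut from each end, was 500.0, and no further scaling was done. Of 31099 probe sets, 57 controls were left out. Gene names came from the platform annotation: 20826 probe sets have 1 symbol, 436 several and 9780 none here, and for 37 of 37 members the gene identifier gives the same current symbol.

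The model was fitted in R 4.3.3 by limma 3.58.1 to log2(signal + 16), with a term for diet and an intensity trend in the variance. Benjamini-Hochberg adjustment ran over the 18625 probe sets from the 40th percentile of mean log2 signal up. A fold on this scale understates the change of dim genes. Single values were also tested by exact two-sided permutation over 126 splits. The fit was tested on simulated data.

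The members and lists were chosen with earlier results of these data known. Array values are given for Mki67, Top2a, Pcna, Ccnb1 and Cdk1, and for the 2 members with the smallest p in each role. The 3 other genes with the smallest p were named in each further list. Values of Plk1 were given after they were seen. Alternatives were pseudocounts of 1 and 64, quantile normalisation, median centring, no filter or the 60th percentile, the replicate number as a block, no variance trend, array weights, probe sets averaged per gene, and leaving out each array. Same-numbered arrays were not treated as pairs in the main fit. Promoters are those of the RefSeq table for GRCr8. The design text names 1 more standard array, which was not analysed here.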

Additional observations from a re-analysis of the deposited data

Results flagged for a closer look

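In 3 of 74 groups of values of the 37 members, 1 array lay far from the others of its diet by Dixon's test at the 95% level, where chance flags about 1 in 20. The Mki67 signal of cafeteria replicate 1 was 93.5, where the other cafeteria arrays had 264.3 to 342.3. The Cdc20 signal of the same array was 98.3, against 220.2 to 282.8 in the others. Birc5, which did not pass the filter, had 10.6 in standard replicate 1 and 88.7 to 94.6 in the other standard arrays.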

How the results depend on the processing

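No member passed limma's adjusted threshold in any of the 19 alternatives, and over all probe sets 0 to 2 did, with each array left out in turn. The count of all probe sets at an unadjusted p under 0.05 was 1717 with no filter, 582 with the replicate block, 1821 with array weights, 626 with probe sets averaged per gene, and 716 to 1678 with each array left out. Members with such a p and a positive fold numbered 5 with quantile normalisation, 4 with median centring, 4 with no variance trend, 1 with the replicate block and 0 at the 60th percentile filter, against 3.46%, 4.36%, 2.79%, 1.47% and 3.42% of all probe sets. They numbered 1 to 7 with each array left out, and those with a negative fold 0 to 1. Median centring raised the share of all probe sets with a positive fold to 56.5%. Fewer genes were tested at the 60th percentile filter, where positive folds were 5 of 9 members, 3 of 6 replication and 1 of 2 mitotic ones, and 6 of 9 and 6 of 7 other replication and mitosis genes. With probe sets averaged per gene they were 15 of 20, 3 of 6 and 11 of 13, and 10 of 16 and 16 of 17. The median of the mitotic members was 0.02 to 0.33 over all alternatives and that of the replication members 0.00 to 0.21. Cdk1 had -0.16 with the replicate block, in which cafeteria replicate 5 has no partner and adds nothing to the fold, and -0.16 to 0.26 with each array left out. No pairing by replicate number was seen: deviations of same-numbered arrays correlated at -0.38, -0.05, -0.12 and 0.03, and no standard array matched its own number best.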
